A study of Mus musculus with 18 samples.

Results

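The mitochondrial genome gave 37 genes of the 48440 in the table, taken by symbols that begin with mt-. They were 13 protein genes, 2 ribosomal RNA genes and 22 transfer RNA genes. RNA was sequenced from the brains of Diversity Outbred mice, a genetically mixed stock bred from several inbred founder strains. The study compared high and low performers, and its title names short-term memory as the trait. The groups were 3 high and 3 low performer libraries each of prefrontal cortex (PFC), of the tissue labelled MDTH and of the tissue labelled HPF, 18 libraries in all. No drug treatment, transgene or age was given for any group in the sources used here, nor the test that set performance. Whether libraries of 1 group are from different mice is not stated, and p-values therefore speak only of library-to-library spread, which may be technical.

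Mitochondrial DNA is a small circular genome, inherited from the mother and present in many copies per cell. Its protein genes all encode subunits of the oxidative phosphorylation machinery: mt-Nd1 to mt-Nd6 with mt-Nd4l belong to complex I (NADH dehydrogenase), mt-Cytb to complex III, mt-Co1 to mt-Co3 to complex IV (cytochrome c oxidase), and mt-Atp6 with mt-Atp8 to complex V (ATP synthase). The ribosomal and transfer RNAs serve translation inside the organelle. Long transcripts of both strands are cut into the separate RNAs, chiefly at the transfer RNAs that lie between the other genes. Neurons depend on this machinery for the ATP that ion pumping and synaptic transmission use.

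On chromosome M of build GRCm38, the annotation places mt-Atp8 (ENSMUSG00000064356) at 7766 to 7969, mt-Nd4l (ENSMUSG00000065947) at 9877 to 10173 and mt-Cytb (ENSMUSG00000064370) at 14145 to 15288, all on the plus strand, and mt-Nd6 (ENSMUSG00000064368) at 13552 to 14070 on the minus strand. Mitochondrial genes have no introns. Some neighbouring protein genes share bases, so that a read from the shared stretch belongs to both. Overlaps of mt-Nd5 with mt-Nd6, on opposite strands, and of mt-Atp6 with mt-Co3 are not shown. The next sequences, from the GENCODE M21 transcripts on build GRCm38, show the overlaps of mt-Nd4l and of mt-Atp8, plus strand, with the shared bases in capitals.
mt-Nd4l and mt-Nd4 at chrM:10147-10193, 7 shared bases: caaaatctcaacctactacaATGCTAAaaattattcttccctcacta
mt-Atp8 and mt-Atp6 at chrM:7907-7989, 43 shared bases: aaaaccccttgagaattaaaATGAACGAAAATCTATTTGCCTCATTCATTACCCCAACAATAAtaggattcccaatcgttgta

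A larger source of shared reads was the nuclear genome, which holds old insertions of mitochondrial DNA. A BLAST search of the GENCODE M21 transcripts found 15 annotated nuclear pseudogenes of at least 90% identity, matching 11 of the 13 protein genes, all except mt-Nd1 and mt-Atp8. Insertions outside annotated pseudogenes were not taken, so a nuclear copy of mt-Nd1 or mt-Atp8 is not excluded. Of the 15 pseudogenes, 7 lie on chromosome 1 with an identity of 99.7% or more, and 3 on chromosome 2. Positions 445 to 504 of the 684-base mt-Co2 show how close the copies are. Capitals mark bases that differ from mt-Co2, and each copy is printed on its own strand.
mt-Co2, chrM:7457-7516, plus strand: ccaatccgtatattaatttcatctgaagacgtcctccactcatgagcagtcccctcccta
Gm28661, chr1:24615062-24615121, minus strand: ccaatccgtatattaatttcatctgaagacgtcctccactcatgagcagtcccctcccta
Gm13341, chr2:22587471-22587530, minus strand: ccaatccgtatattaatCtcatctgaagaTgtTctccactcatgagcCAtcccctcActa

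Gm28661 had 0 differences in this window and 100% identity over 681 bases, and Gm13341 had 6 differences in the window and 95.9% identity over 684 bases. How reads that match both a gene and its copy were assigned is not given in the sources used here, so a value of mt-Co2 alone is uncertain. Each affected gene is therefore given alone and with its nuclear copies added, an alternative that was chosen after seeing the data.

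The split between gene and copy was uneven. Of the summed level of gene and copies, the mitochondrial gene held 0.633% to 4.36% for mt-Co2 over the 18 libraries, 2.34% to 27.3% for mt-Atp6, 12.1% to 17.8% for mt-Co3, 1.71% to 23.9% for mt-Nd3 and 4.66% to 43.7% for mt-Nd4l. For mt-Co1 it held 48.1% to 95.7%, and for mt-Nd2 from 69.9% to nearly all. It held at least 89.5% for mt-Nd5, 95.3% for mt-Nd6 and 94.7% for mt-Cytb, and nearly all for mt-Nd4. These shares are of levels and not of molecules that are known to come from either genome.

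Adding the copies narrowed the spread between libraries for some genes. The highest library over the lowest was 18.6-fold for mt-Nd3 alone and 2.97-fold with its copy. The ratio was 13.8 and 1.86 for mt-Atp6, 8.65 and 2.00 for mt-Co2, and 6.09 and 1.78 for mt-Nd4l, alone and with copies. It was wider with the copy for mt-Nd2 (2.25 alone, 2.78 with the copy) and mt-Co3 (1.89 and 2.11), and hardly moved for mt-Cytb (1.96 and 1.97).

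Per kb of gene, mt-Co1 had the highest median of the 15 protein and ribosomal RNA genes, 738522 normalized counts per kb alone and 1003100 with copies. The median of mt-Co2 was 13846 per kb alone, rank 14 of 15, and 696535 with copies, rank 2. For mt-Atp6 the rank was 12 alone and 3 with copies, and for mt-Co3 it was 11 and 4. The lowest level per kb was that of mt-Nd3 on both counts, 9679 alone and 104482 with its copy. The ribosomal RNA genes mt-Rnr1 and mt-Rnr2 had medians of 147659 and 132059 per kb, at ranks 7 and 9 of 15 when protein genes were taken alone and at ranks 11 and 13 with copies.

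**Figure D1:**
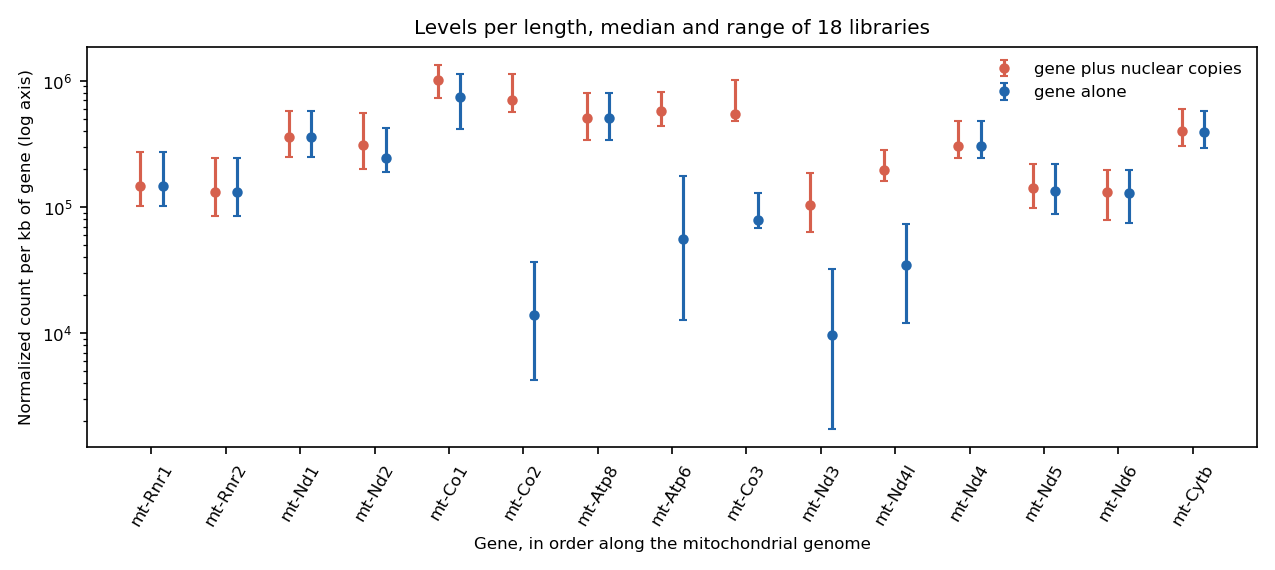
Normalized count per kb of gene (log axis) for 15 mitochondrial genes in their order on the genome, as the median (point) and range (bar) of 18 libraries, with nuclear copies added (red) and for the gene alone (blue). The genes mt-Co3, mt-Atp6, mt-Nd4l, mt-Co2 and mt-Nd3 hold ranks 11 to 15 of 15 alone, in that order, and mt-Co2 moves to rank 2 with copies.

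The copies on chromosomes 2, 4, 11 and 13 followed the number in the library name. Gm13341, a copy of mt-Co2 on chromosome 2, was above 1000 normalized counts in 8 libraries, at 208472 to 412603, and at or below 530.8 in the other 10. Those 8 were the libraries whose names hold 88, 165 or 163, in every tissue. Gm13340, a full-length copy of mt-Co1, had 486428 and 519860 normalized counts in the PFC high libraries numbered 88 and 165, and 56882 in the one numbered 44, against 144 to 313 in the 3 PFC low libraries.

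From which genome the reads assigned to these copies came is not known from the deposited values, so neither a copy nor a gene alone is a measure of its own transcript. No PFC low library held Gm13341 above 1000, whereas 1 MDTH low library and 1 HPF low library, both numbered 163, did. In PFC high levels of these copies were thus found in 2 of 3 high and 0 of 3 low libraries, and copy levels and performance cannot be fully told apart there. The copies on chromosome 1 other than Gm28439 were above 1000 normalized counts in all 18 libraries. Gm28439, which matches part of mt-Nd4, reached at most 62.3.

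**Figure D2:**
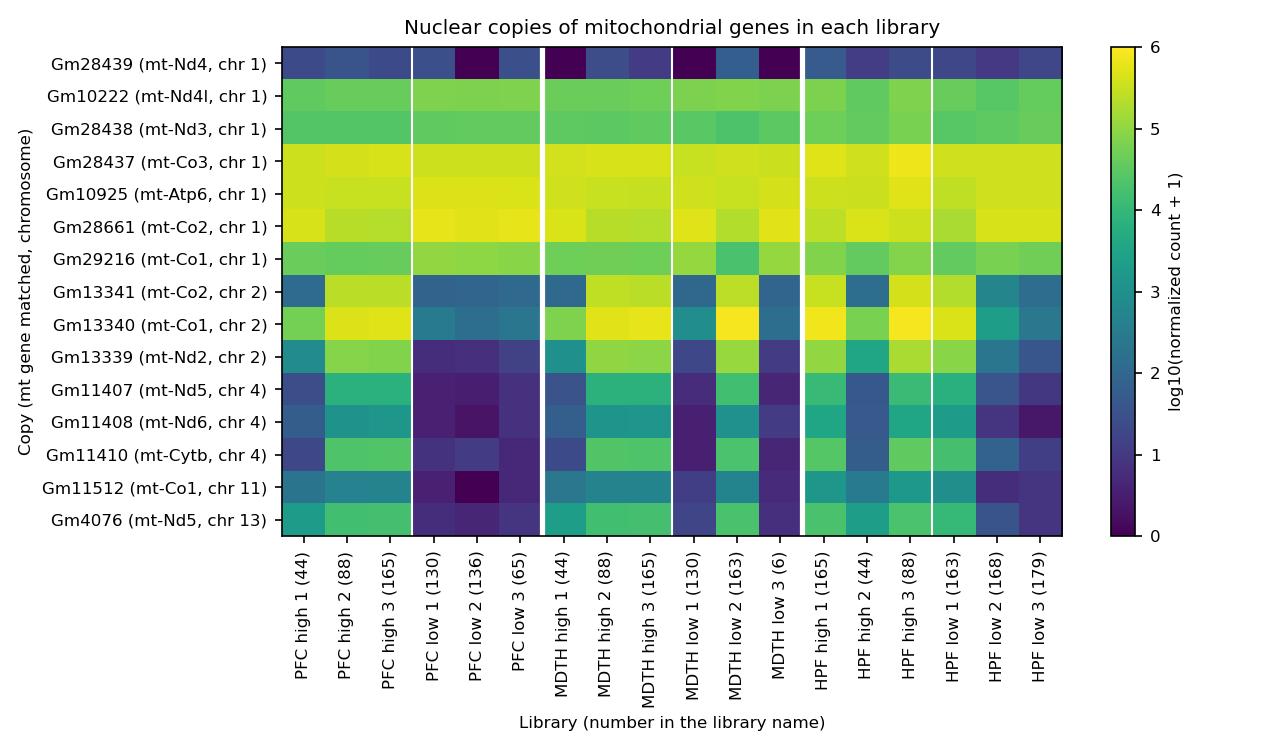
Heat map of log10(normalized count + 1) for 15 nuclear copies (rows, with the mitochondrial gene each matches and its chromosome) in 18 libraries (columns, with the number in the library name). Libraries numbered 88, 165 and 163 carry the copies of chromosomes 2, 4 and 13 in every tissue, those numbered 44 hold Gm13340, Gm13339 and Gm4076 at lower levels, and the rest are low.

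The libraries differed in more than these copies. Column totals ran from 50828589 to 59634490 normalized counts, and the depth in reads is unknown from these values. Library names were written in a different style for high and for low performers in PFC and in MDTH, so a difference of preparation and performance cannot be told apart there. In HPF only lane code 4 held both groups, with 1 library of each. The HPF libraries also had lane codes and a name style that no PFC or MDTH library had. A difference between HPF and another tissue therefore cannot be told apart from one of preparation. Among tissue markers, a thalamus list summed to 122542 to 263731 normalized counts in MDTH against at most 24555 elsewhere, and a hippocampus list to 46314 to 72683 in HPF against at most 19630 elsewhere. A prefrontal cortex list of 7 genes summed to 106669 to 126389 in PFC and at most 30680 in MDTH, but reached 114187 in HPF and so did not separate PFC from HPF.

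Transfer RNA genes were almost absent. Of 22, 13 were listed at 0 in every library, 9 were above 0 in at least 1, and 0 reached the mean of 10 that testing required. The transfer RNAs named next were chosen after their values were seen. The highest value in any library was 6.87, for mt-Ts1, a serine transfer RNA that was above 0 in 15 libraries. The next most often seen was mt-Tm, the methionine transfer RNA, above 0 in 9 libraries, followed by mt-Te, the glutamate transfer RNA, in 7. Summed over all 22, the level was 1.12 to 13.0 normalized counts per library. The library kit is made for polyadenylated RNA and mature transfer RNAs are short, and the part of either in these values was not tested.

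The ribosomal RNA genes did not pass in any tissue. The small-subunit RNA mt-Rnr1 had 99389, 143751 and 177341 normalized counts in PFC high libraries, against 190860, 141452 and 158952 in PFC low libraries. The large-subunit RNA mt-Rnr2 had 133453, 212128 and 245527 in PFC high libraries, against 209279, 162909 and 208555 in PFC low libraries. Both genes overlapped between the groups, and their log2 differences in PFC were -0.25 (95% interval -0.77 to 0.27, adjusted p = 0.521) and -0.01 (-0.56 to 0.54, adjusted p = 0.980).

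In MDTH the log2 differences of mt-Rnr1 and mt-Rnr2 were -0.02 and 0.10 (adjusted p = 0.937 and 0.692). In HPF they were 0.29 and 0.23 (adjusted p = 0.744 and 0.795). Their joint share of all counts was 0.608% ± 0.171 in high and 0.621% ± 0.0689 in low performers of PFC (SD, n = 3 each, exact permutation p = 0.8). Shares were 0.562% ± 0.105 and 0.559% ± 0.0112 in MDTH (exact p = 1.0), and 0.923% ± 0.331 and 0.744% ± 0.139 in HPF (exact p = 0.4), high before low. These are two-sided exact permutation tests, whose smallest possible p is 0.1 with 3 against 3.

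All mitochondrial genes together took a smaller share of counts in high performers of PFC and MDTH, and a larger one in high performers of HPF. In HPF the shares were 7.19%, 6.51% and 8.63% in high performers, against 4.66%, 6.25% and 6.14% in low performers. Their means were 7.44% ± 1.08 for high and 5.68% ± 0.884 for low performers (SD, n = 3 each). The groups did not overlap in any of the 3 tissues, and each exact permutation test gave its smallest p of 0.1. Without HPF high library 3 the difference of 1.76 percentage points was 1.17. In lane code 4 of HPF, the high library held 8.63% and the low library 6.14%.

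With the nuclear copies counted in, the share was 8.52% ± 0.522 in high and 11.3% ± 0.295 in low performers of PFC (SD, n = 3 each). The MDTH values were 9.16% ± 0.216 for high and 10.8% ± 0.392 for low performers, and the HPF values 11.9% ± 2.70 for high and 8.37% ± 0.494 for low performers (SD, n = 3 each). None of these 3 pairs of groups overlapped, each again at an exact p of 0.1. The widest group was the HPF high performers, at 11.9%, 9.16% and 14.6% for libraries numbered 165, 44 and 88. Without the last, HPF high library 3, the HPF difference of 3.49 percentage points was 2.15.

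**Figure D3:**
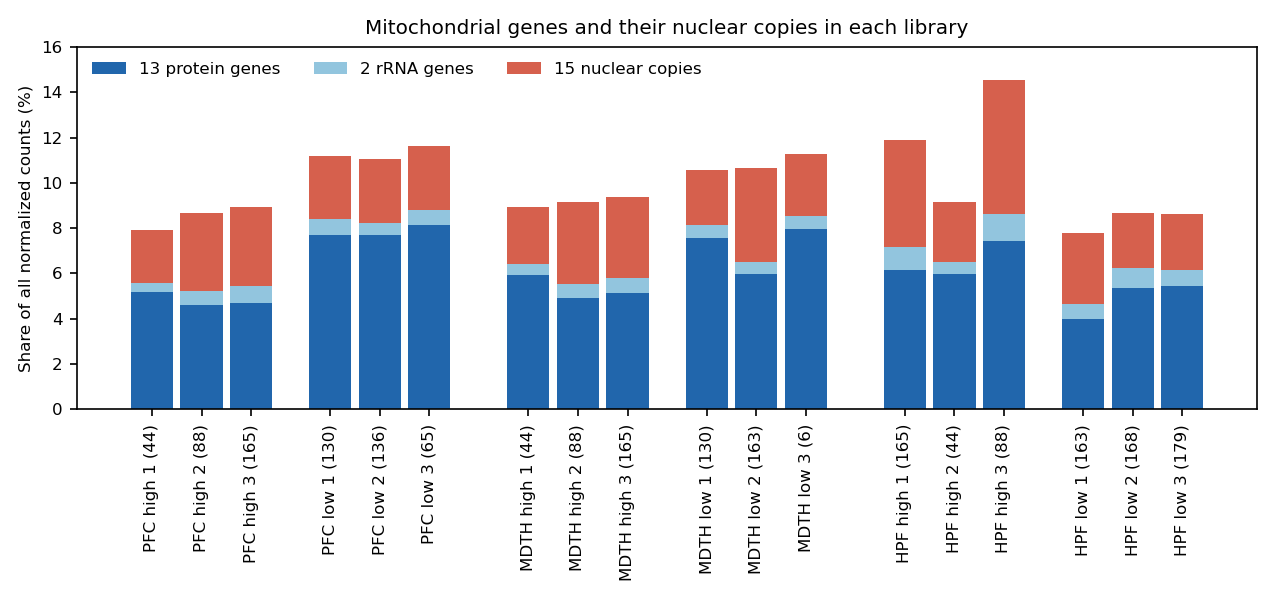
Share of all normalized counts (%) taken by the 13 protein genes (dark blue), the 2 rRNA genes (light blue) and the 15 nuclear copies (red) in each of 18 libraries, with the number in the library name in brackets. High performers lie below low performers in PFC and MDTH and above them in HPF, while the red part is largest in libraries numbered 88, 165 and 163.

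Among the protein genes with copies added, the balance of complexes was compared too. Complex I genes made up 29.1% ± 0.749 in high and 33.6% ± 0.549 in low performers of PFC (SD, n = 3 each, exact p = 0.1). In MDTH they made up 29.9% ± 0.693 for high and 33.9% ± 0.366 for low performers (exact p = 0.1), and in HPF 29.7% ± 1.28 for high and 30.2% ± 0.519 for low performers (SD, n = 3 each, exact p = 0.6). Complex IV genes made up 51.6% ± 0.774 in high and 46.1% ± 0.222 in low performers of PFC (SD, n = 3 each, exact p = 0.1).

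The complex IV share was 51.4% ± 0.728 for high and 46.3% ± 0.775 for low performers of MDTH (exact p = 0.1), and 50.5% ± 0.967 and 49.7% ± 0.712 in HPF, high before low (SD, n = 3 each, exact p = 0.4). Neither share overlapped between groups in PFC and MDTH, and both did in HPF. Complex III made up 9.65% ± 0.0702 for high and 9.24% ± 0.251 for low performers of PFC and 9.78% ± 0.515 for high and 8.98% ± 0.274 for low performers of HPF, without overlap (SD, n = 3 each, exact p = 0.1 in both). In MDTH it made up 9.22% ± 0.255 and 9.57% ± 0.387, high before low, and overlapped (SD, n = 3 each, exact p = 0.3). Complex V was without overlap in PFC only, at 9.63% ± 0.831 for high and 11.0% ± 0.389 for low performers (SD, n = 3 each, exact p = 0.1), and had exact p = 0.4 in MDTH and 0.2 in HPF. Gm13340 and Gm13341, copies of complex IV genes, are among those that followed the library number, and their part in this balance was not tested.

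In PFC, 9 of the 13 protein genes were lower and 1 was higher in high performers by limma, where 2.63% of 17991 genes tested were lower and 3.22% were higher. After quantile normalization 2 were lower, and without a mean-variance trend 1 was lower and 0 higher. The shares of all genes that passed in those fits are not shown here. With copies added, 8 were lower and 0 higher, where 2.57% and 3.16% of 17976 genes were. The median log2 difference was -0.78 alone and -0.61 with copies, while that of all genes tested was -0.01.

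The best separated gene was mt-Atp8, a small subunit of the membrane part of ATP synthase, for which no annotated nuclear copy was found. It shares 43 bases with mt-Atp6, whose copy Gm10925 has 100% identity to mt-Atp6 over 678 bases. The values of mt-Atp8 were 74122, 69067 and 70965 normalized counts in PFC high libraries, against 140566, 133901 and 127782 in PFC low libraries. Every high library was below every low library, the log2 difference was -0.91 (SE 0.08, 95% interval -1.11 to -0.71) and the adjusted p was 0.00958. For mt-Nd1, a membrane-arm subunit of complex I, the search also found no copy. Its values were 302797, 344426 and 278635 in PFC high libraries, against 536225, 502508 and 547477 in PFC low libraries.

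The log2 difference of mt-Nd1 was -0.78 (SE 0.12, adjusted p = 0.0212), again with no overlap. Complex I subunit mt-Nd4, whose copy held almost no counts, had 341906, 337281 and 360793 in PFC high libraries, against 594031, 534157 and 565545 in PFC low libraries. Its log2 difference was -0.70 (SE 0.11, adjusted p = 0.0212). These 3 genes, which the copies found here hardly touch, were thus all lower in high performers.

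The other complex I genes read from mostly mitochondrial counts were lower as well. For mt-Nd5 the values were 209158, 196155 and 219488 in PFC high libraries, against 366077, 365002 and 391904 in PFC low libraries, a log2 difference of -0.85 (adjusted p = 0.0136) alone and -0.74 (adjusted p = 0.0189) with copies. The gene mt-Nd6 is encoded on the other strand from all other protein genes. It had 47793, 57984 and 66726 in PFC high libraries, against 86105, 84957 and 93374 in PFC low libraries. Its difference was -0.63 (adjusted p = 0.0411) alone and -0.61 (adjusted p = 0.0491) with its copy.

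Cytochrome b, the mt-Cytb product, carries electrons inside complex III. The gene had 398547, 405193 and 419101 normalized counts in PFC high libraries, against 567047, 561879 and 565340 in PFC low libraries. The difference of -0.47 passed alone (adjusted p = 0.0482) and that of -0.42 did not pass with its copy (adjusted p = 0.0663), though the groups did not overlap either way. Likewise mt-Nd2 passed alone at -0.92 (adjusted p = 0.0169) and had -0.61 with its copy (adjusted p = 0.0752).

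Complex IV genes also depended on the copies. The catalytic subunit gene mt-Co1 had 1155539, 815552 and 878271 normalized counts in PFC high libraries, against 1719757, 1651065 and 1743847 in PFC low libraries, a log2 difference of -0.86 (adjusted p = 0.0380). With copies it had 1254064, 1340889 and 1438306 in PFC high libraries, against 1828676, 1749264 and 1829628 in PFC low libraries, a log2 difference of -0.42 (95% interval -0.75 to -0.09, adjusted p = 0.123). The call was lost, but every high library stayed below every low library.

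For mt-Co2, which carries the copper centre that takes electrons from cytochrome c, the difference was -1.98 alone (adjusted p = 0.0385) and -0.38 with copies (adjusted p = 0.0992). It had 10029, 5785 and 2914 normalized counts alone in PFC high libraries, against 19334, 21299 and 25202 in PFC low libraries. With copies it had 440953, 479929 and 460344 in PFC high libraries, against 617258, 555650 and 621048 in PFC low libraries. Neither version overlapped between groups.

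The remaining complex IV gene, mt-Co3, did not pass on either count, with log2 differences of -0.15 alone (adjusted p = 0.310) and 0.11 with its copy (95% interval -0.16 to 0.38, adjusted p = 0.595). Its values with the copy were 410590, 469301 and 487265 in PFC high libraries, against 430383, 411952 and 421841 in PFC low libraries. It was the one protein gene whose groups overlapped once copies were added.

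The apparent exceptions in PFC were short complex I genes. Alone, mt-Nd4l had 13599, 11893 and 14522 normalized counts in PFC high libraries, against 6631, 4790 and 5914 in PFC low libraries, and was higher in high performers (log2 difference 1.21, SE 0.14, adjusted p = 0.0136). Its copy Gm10222, of 100% identity over 294 bases, went the other way, at 34020, 40466 and 40728 in PFC high libraries, against 67891, 66010 and 68349 in PFC low libraries. The sum of both had 47618, 52360 and 55249 in PFC high libraries, against 74522, 70800 and 74263 in PFC low libraries, and was lower in high performers (log2 difference -0.50, SE 0.09, adjusted p = 0.0256).

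The gene's own part of that sum was 28.6%, 22.7% and 26.3% in PFC high libraries, against 8.90%, 6.77% and 7.96% in PFC low libraries. The direction for mt-Nd4l thus turned when the identical copy was added. The same held for mt-Nd3, which had 5429, 3467 and 4611 alone in PFC high libraries, against 607.4, 3270 and 1428 in PFC low libraries. Its difference was 1.64 alone (adjusted p = 0.127), and -0.33 with the copy (adjusted p = 0.0494). Without PFC low library 1 the difference alone was 1.03.

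The proton-channel subunit gene mt-Atp6 passed only with its copy. Its difference was -1.13 alone (adjusted p = 0.105) and -0.62 with its copy (SE 0.10, adjusted p = 0.0235). With the copy it had 363337, 337396 and 347431 in PFC high libraries, against 544021, 538774 and 530628 in PFC low libraries, values that did not overlap. Alone, the difference was -0.74 without PFC high library 1.

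Over all 13 genes in PFC, every high library was below every low library for 11 genes and above for 2, mt-Nd3 and mt-Nd4l, where 13.8% and 17.2% of all genes tested were so ordered. With copies it was 12 below and 0 above. Leaving out 1 library changed the number of calls: 0 genes passed lower without PFC high library 2, PFC high library 3 or PFC low library 3, and 3, 4 and 5 without PFC high library 1, PFC low library 1 and PFC low library 2. The number that passed higher was 0 without PFC high library 2, PFC high library 3 or PFC low library 3, and 2 without PFC low library 2. With copies added, 0 passed lower without the same 3 libraries, 1 without PFC high library 1, 4 without PFC low library 1 and 6 without PFC low library 2. How many of all genes passed in each of these fits is not shown here. A loss of calls particular to these genes and a general one therefore cannot be told apart.

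**Figure D4:**
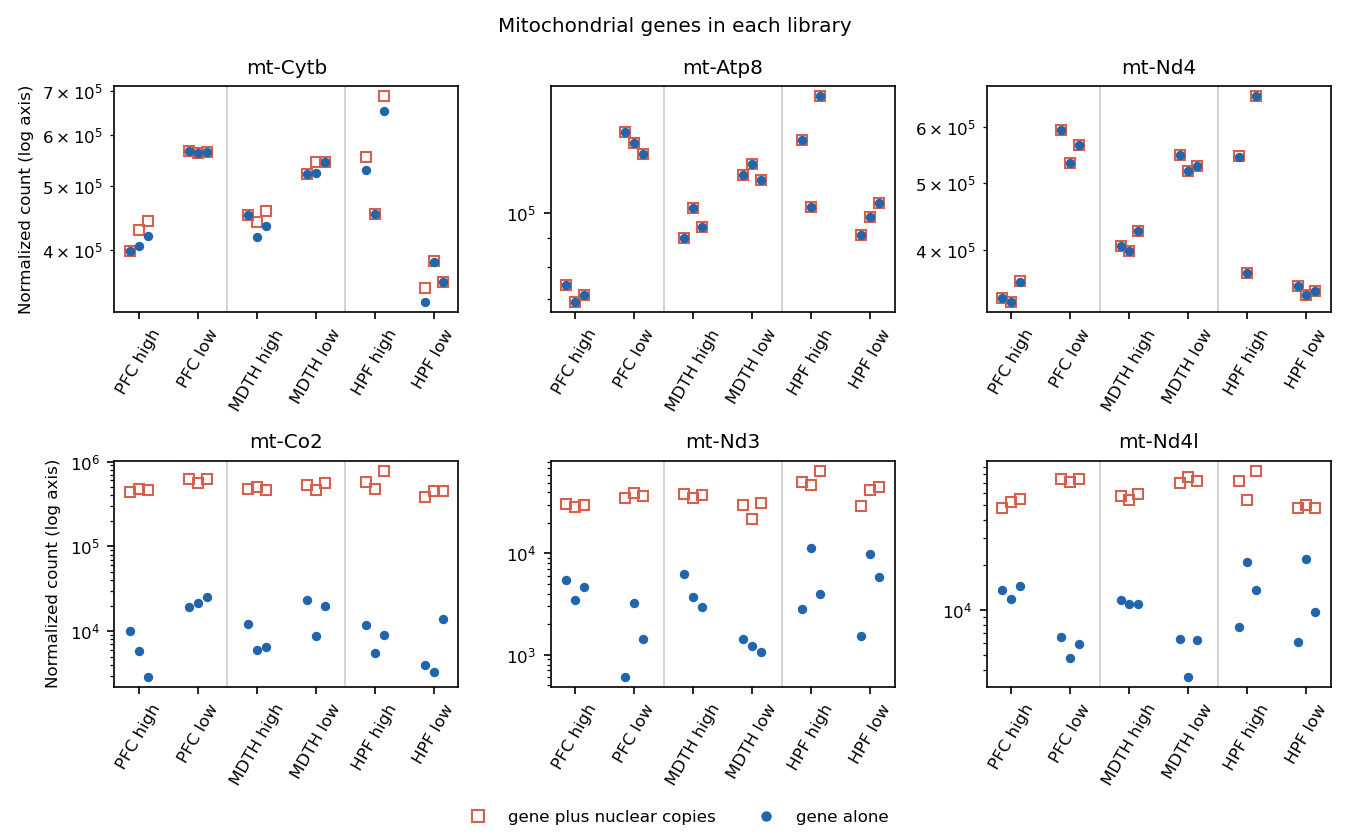
Normalized counts (log axis, a scale of its own in each panel) of mt-Cytb, mt-Atp8, mt-Nd4, mt-Co2, mt-Nd3 and mt-Nd4l in 18 libraries by group, each gene alone (blue points) and with its nuclear copies (red squares). For mt-Nd4l in PFC the blue points of high performers lie above those of low performers and the red squares lie below.

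A list of 7 genes sensitive to RNA quality and handling (immediate-early genes, heat-shock genes and nuclear-retained RNAs) differed between the groups. It summed to 23275 to 24897 normalized counts in high and 51116 to 77227 in low performers of PFC, and to 9596 to 13059 in high and 18337 to 24813 in low performers of MDTH, while the HPF sums were 19528 to 21102 and 22348 to 23556, high before low, with no member at 0. Of the 7, 2 passed as lower in PFC, 4 in MDTH and 0 in HPF. Of all genes tested, 2.63%, 12.5% and 0.00553% passed as lower in these tissues, in the same order. In PFC the sums of 5 astrocyte genes were 38449 to 48384 in high and 49244 to 54581 in low performers, and those of 5 microglia genes 9567 to 11582 in high and 12045 to 14832 in low performers. In PFC 0 of the 5 astrocyte and 2 of the 5 microglia genes passed as lower. The PFC sums of the neuron, oligodendrocyte, endothelial and mural, blood and choroid plexus lists overlapped between the groups. The part of these lists in the mitochondrial differences was not tested.

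In MDTH, 4 of 13 protein genes were lower and 2 higher in high performers, where 12.5% of 17861 genes were lower and 12.5% higher. With copies 5 were lower and 0 higher, where 12.6% and 12.5% of 17846 genes were. The median log2 difference was -0.36 alone and -0.31 with copies, and that of all genes tested was 0.00. With all MDTH libraries kept, the share of members that passed as lower was thus above the background, an excess that was not itself tested. It rested on single libraries. With each MDTH library left out in turn, 0 to 2 of the 13 passed as lower alone and 0 to 3 with copies. The background of those fits is not shown here, so whether the excess held in them is not known.

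The gene mt-Nd6 had the smallest p among those lower, with 56175, 60297 and 66858 normalized counts in MDTH high libraries, against 81029, 95680 and 102246 in MDTH low libraries. It fell by 0.60 (SE 0.12, adjusted p = 0.0136) alone and by 0.59 (adjusted p = 0.0149) with its copy. Per 100 counts of the other protein genes with copies, mt-Nd6 gave 1.28 ± 0.0896 for high and 1.69 ± 0.208 for low performers of MDTH (SD, n = 3 each, exact p = 0.1). This ratio compares both strands of the mitochondrial genome only if reads were counted by strand, which is not given in the sources used here. In PFC it was 1.35 ± 0.175 and 1.46 ± 0.0679 and in HPF 1.11 ± 0.221 and 1.11 ± 0.0329, high before low (SD, n = 3 each, exact p = 0.4 and 1.0).

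For mt-Nd5 the values were 244666, 224536 and 241279 in MDTH high libraries, against 346334, 292390 and 398625 in MDTH low libraries (log2 difference -0.54, adjusted p = 0.0341 alone; -0.49, adjusted p = 0.0239 with copies). For mt-Atp8 they were 90360, 102017 and 94349 in MDTH high libraries, against 117287, 122631 and 114941 in MDTH low libraries (log2 difference -0.31, adjusted p = 0.0465). Both were without overlap. The difference of mt-Nd4 was -0.38 and passed only beside copies (adjusted p = 0.0567 alone, 0.0452 with copies), although its own values hardly changed.

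For mt-Nd2 the values alone were 252985, 234732 and 225975 in MDTH high libraries, against 381880, 312227 and 331331 in MDTH low libraries (log2 difference -0.52, adjusted p = 0.0249). With its copy it had -0.35 (adjusted p = 0.145) and overlapped. The differences of mt-Nd1, mt-Cytb and mt-Co1 did not pass, at -0.36 (adjusted p = 0.0881), -0.29 (adjusted p = 0.122) and -0.25 (adjusted p = 0.618) alone.

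The 2 of 13 genes that passed as higher in MDTH high performers were mt-Nd3 and mt-Nd4l, beside 12.5% of all genes tested. In PFC only mt-Nd4l had passed as higher. The high libraries of both tissues carry the same name numbers. Alone, mt-Nd3 had 6310, 3698 and 2973 normalized counts in MDTH high libraries, against 1437, 1225 and 1059 in MDTH low libraries (log2 difference 1.74, adjusted p = 0.00686). With its copy it had 38609, 35250 and 37537 in MDTH high libraries, against 30240, 21977 and 31272 in MDTH low libraries (0.43, adjusted p = 0.0599). Unlike in PFC the direction stayed with the copy, and the groups did not overlap.

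Alone, mt-Nd4l had 11634, 10999 and 10982 in MDTH high libraries, against 6372, 3595 and 6344 in MDTH low libraries (log2 difference 1.09, adjusted p = 0.0136). The sum with its copy had 57254, 53926 and 58926 in MDTH high libraries, against 70162, 77097 and 72545 in MDTH low libraries (log2 difference -0.37, adjusted p = 0.0181). The direction turned as in PFC. The gene's own part of that sum was 20.3%, 20.4% and 18.6% in MDTH high libraries, against 9.08%, 4.66% and 8.74% in MDTH low libraries.

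Every MDTH high library was below every low library for 7 genes and above for 2, where 22% and 22.2% of all genes tested were so ordered, and for 8 and 2 with copies. The low library numbered 163, which carries the copies of chromosomes 2, 4 and 13 like the high libraries numbered 88 and 165, had 392022 normalized counts of mt-Nd1, above all 3 high libraries (335281, 368236 and 314497). Its mt-Co1 alone, at 770950, was below all of them (1367470, 904588 and 978745). Its mt-Co2 alone, at 8769, lay within their range (12210, 5941 and 6462). Its share of counts from mitochondrial genes was 6.52%, against at most 6.40% in the high libraries. The number passed lower was 0 without MDTH low library 3, 1 without MDTH high library 2 and 2 without any other library. With copies it was 0 without MDTH low library 2 or 3 and 1 without MDTH high library 2. It was then 2 without MDTH high library 1 or 3, and 3 without MDTH low library 1. How many of all genes passed in each of these fits is not shown here.

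Regional markers also differed within MDTH. The thalamus list of 7 genes summed to 226697 to 263731 normalized counts in high and 122542 to 165633 in low performers, and the list of 6 genes of the neighbouring habenula to 1522 to 2062 in high and 4795 to 25559 in low performers, with no member at 0. Of the 7 thalamus genes, 4 passed as higher and 1 as lower. Of the 6 habenula genes, 4 passed as lower and 0 as higher, where 12.5% of all genes passed each way. The habenula list summed to more in PFC (6498 to 9990) and HPF (9320 to 13636) than in MDTH high libraries, so its sum is not particular to the habenula. The prefrontal cortex list also differed in MDTH, at 24411 to 30680 in high and 10575 to 18921 in low performers. Oligodendrocyte sums in MDTH were 239232 to 267360 in high and 268355 to 310478 in low performers. Those of the neuron, astrocyte, microglia, endothelial and mural, blood and choroid plexus lists overlapped. In such tissue samples, fewer cells of a type and less RNA per cell cannot be told apart, and the part of these markers in the mitochondrial differences was not tested.

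In HPF, 0 of 13 protein genes passed by limma in either direction, where 0.0111% of 18082 genes were higher and 0.00553% lower, and 2 had an unadjusted p below 0.05. With copies 0 passed, where 0.0166% and 0.0221% of 18067 genes did, and 4 had an unadjusted p below 0.05. The differences of all 13 genes were positive in both versions, at 0.17 to 0.89 alone with a median of 0.42, and at 0.33 to 0.62 with copies with a median of 0.49. That of all genes tested was -0.01. Few genes of any kind passed in HPF.

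The gene mt-Cytb had 529768, 453591 and 652407 normalized counts in HPF high libraries, against 332540, 383515 and 357264 in HPF low libraries. The groups did not overlap, and the log2 difference was 0.59 (95% interval 0.14 to 1.05, adjusted p = 0.287). For mt-Nd4 the values were 545036, 370674 and 664888 in HPF high libraries, against 355684, 344993 and 350177 in HPF low libraries, with a difference of 0.55 (95% interval -0.01 to 1.11, adjusted p = 0.383). The high library numbered 44 was the lowest of its group in both genes. Without HPF high library 3 the difference of mt-Nd4 was 0.36.

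For mt-Atp8 the values were 135586, 102785 and 162887 in HPF high libraries, against 91394, 98562 and 104424 in HPF low libraries, and those overlapped (log2 difference 0.42, adjusted p = 0.376, and 0.27 without HPF high library 3). Groups were without overlap, high above low, for 2 genes alone, mt-Nd4 and mt-Cytb, and for 6 with copies, where 8.47% of all genes tested were so ordered and 11.6% the other way. In lane code 4, the high and the low library had 652407 and 357264 of mt-Cytb, 664888 and 350177 of mt-Nd4, and 162887 and 104424 of mt-Atp8. The other lane codes held 1 group only.

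Marker sums were also compared within HPF, where 0 members of these lists passed. The list of 6 neuron genes summed to 173413 to 212962 normalized counts in high and 266690 to 327338 in low performers, the choroid plexus list of 5 to 7759 to 161762 in high and 4165 to 6139 in low performers, and the prefrontal cortex list of 7 to 63935 to 78062 in high and 93837 to 114187 in low performers, all without overlap. The astrocyte list of 5 overlapped, at 72635 to 135074 in high and 70648 to 81325 in low performers. No member was at 0 throughout, and the part of these lists in the mitochondrial values was not tested.

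**Figure D5:**
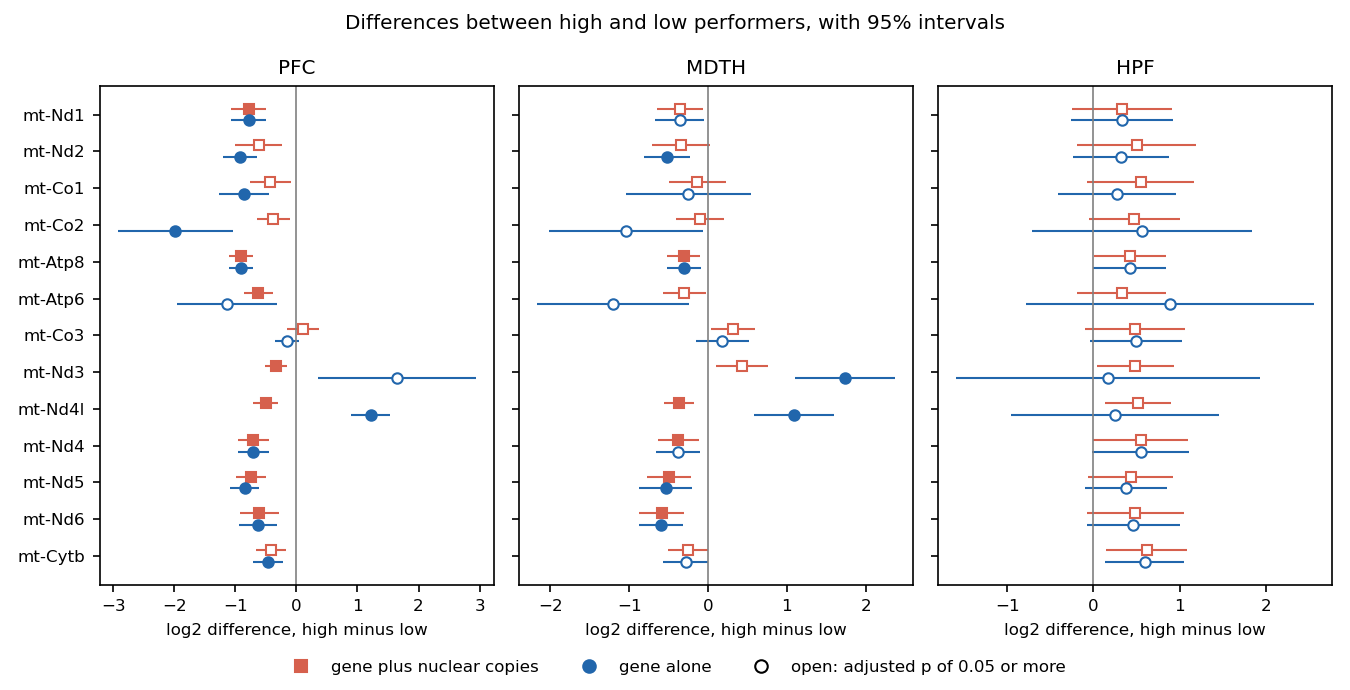
Log2 difference (high minus low performers, x axis) with its 95% interval for 13 protein genes (rows, in genome order) in PFC, MDTH and HPF, for each gene with nuclear copies (red squares) and alone (blue circles), filled where the adjusted p was below 0.05. With copies 8 genes are filled in PFC and 5 in MDTH, all left of 0, and all 13 lie right of 0 in HPF.

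The performance difference itself differed between HPF and the other tissues. HPF also had lane codes and a name style of its own, so tissue and preparation cannot be told apart in these contrasts. Between HPF and PFC, 8 of 13 genes had a more positive high minus low difference in HPF and 0 a more negative one, where 3.37% of 18254 genes were more positive and 5.77% more negative. With copies 12 were, all except mt-Co3, where 3.39% and 5.77% of 18239 genes were. The interaction was 1.33 for mt-Atp8 (SE 0.18, adjusted p = 0.000967), 1.25 for mt-Nd4 (SE 0.22, adjusted p = 0.00437) and 1.06 for mt-Cytb (SE 0.18, adjusted p = 0.00310). Without HPF high library 3 or HPF low library 1, mt-Nd6 no longer passed, with an adjusted p of at most 0.0532. These comparisons share libraries with the within-tissue tests.

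Between MDTH and HPF, 6 genes had a more negative difference in MDTH, where 8.52% of 18254 genes did and 10.5% had a more positive one. With copies 8 did, where 8.56% and 10.5% of 18239 genes did. With the replicate block by name number, 8 passed alone, mt-Nd1 (adjusted p = 0.0218) and mt-Atp6 (adjusted p = 0.0295) being added, and 11 with copies. The interaction was -0.73 for mt-Atp8 (adjusted p = 0.00982), -0.92 for mt-Nd4 (adjusted p = 0.00974) and -0.88 for mt-Cytb (adjusted p = 0.00318). Without MDTH high library 2, MDTH high library 3, MDTH low library 1 or HPF low library 1, mt-Nd2 no longer passed, and its adjusted p reached 0.0861 over all alternatives. For mt-Nd4l the interaction was 0.84 alone (adjusted p = 0.319) and -0.88 with its copy (adjusted p = 0.00233).

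Between MDTH and PFC, 0 genes passed by limma alone or with copies, where 0.871% of 18254 genes were more positive in MDTH and 2.54% more negative (0.883% and 2.54% with copies), and 1 and 2 had an unadjusted p below 0.05. For mt-Atp8 the interaction was 0.60 (adjusted p = 0.0816), and with libraries of the same name number as a replicate block it was 0.60 (adjusted p = 0.0428). With copies and the block, mt-Nd3 also passed, at 0.70 (adjusted p = 0.0415), against 0.77 without the block (adjusted p = 0.0753). Without HPF high library 2 or HPF high library 3, 1 gene passed.

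Levels were also compared between tissues, averaged over performance. In the contrasts with HPF, tissue again cannot be told apart from lane codes and name style. Between MDTH and HPF, 4 genes were higher in MDTH and 0 lower, where 29.1% of 18254 genes were higher and 29% lower. They were mt-Nd1 at 0.33 (adjusted p = 0.0357), mt-Nd5 at 0.34 (adjusted p = 0.0139), mt-Nd6 at 0.55 (adjusted p = 0.00183) and mt-Atp6 at 1.23 (adjusted p = 0.0222) on the log2 scale. With its copy mt-Atp6 had 0.06 (adjusted p = 0.624), while mt-Nd3 then passed as lower in MDTH at -0.51 (adjusted p = 0.000990). With the replicate block by name number mt-Nd4l alone passed as lower in MDTH, at -0.62 (adjusted p = 0.0302). The large ribosomal RNA mt-Rnr2 was lower in MDTH than in HPF at -0.48 (adjusted p = 0.0475).

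Between HPF and PFC, 3 genes were lower in HPF and 0 higher, where 23.7% of 18254 genes were lower and 21.8% higher. The gene mt-Nd6 had 74684, 41047 and 70687 normalized counts in HPF high and 38893, 46003 and 46274 in HPF low libraries. The 3 genes were mt-Nd1 at -0.41 (adjusted p = 0.0170), mt-Nd5 at -0.31 (adjusted p = 0.0291) and mt-Nd6 at -0.47 (adjusted p = 0.00815). With its copy mt-Nd3 passed as higher in HPF, at 0.45 (adjusted p = 0.00359). Between MDTH and PFC, 0 genes passed by limma and 0 had an unadjusted p below 0.05, alone or with copies, where 20.3% of genes were higher in MDTH and 20.4% lower.

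The shares of members that passed were near those of all genes or below them, so they single out no member group. The tissue calls rested in part on single libraries: 2 genes passed as higher in MDTH than in HPF without HPF high library 2, and 7 without HPF high library 3. As lower in MDTH than in HPF, 2 genes passed without HPF high library 1, HPF high library 2 or HPF low library 1, and 1 without PFC low library 1, PFC low library 2 or MDTH high library 1. As higher in HPF than in PFC, 2 genes passed without HPF high library 2 or HPF low library 1, and 1 without PFC low library 2.

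Nuclear genes that maintain, transcribe and process mitochondrial DNA and RNA were followed beside the members. Of 49 tested, 1 was higher and 1 lower in high performers of PFC, 7 higher and 2 lower in MDTH, and 0 in HPF. Of all genes tested, 3.22% were higher and 2.63% lower in PFC and 12.5% each way in MDTH, so these counts were near or below the background and the genes named next are single values. The RNA-stabilizing protein gene Slirp was higher in both PFC (log2 difference 0.88, adjusted p = 0.0185) and MDTH (0.66, adjusted p = 0.0256). None of the 49 passed in HPF, where the median log2 difference was -0.07.

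In MDTH the polymerase gene Polg, which copies mitochondrial DNA, was higher by 0.57 (adjusted p = 0.0181), as were Trnt1, which adds the transfer RNA end, by 0.42 (adjusted p = 0.0233) and Trmt10c, a subunit of the enzyme that frees transfer RNA 5′ ends, by 0.49 (adjusted p = 0.0233). Fastk, a member of a family of mitochondrial RNA regulators, was lower in MDTH at -0.46 (adjusted p = 0.0137) and in PFC at -0.55 (adjusted p = 0.0493). The topoisomerase gene Top1mt was lower in MDTH at -0.44 (adjusted p = 0.0250). The transcription factor gene Tfam, named after its values were seen, had 0.30 in PFC (adjusted p = 0.182), 0.34 in MDTH (adjusted p = 0.0875) and -0.01 in HPF (adjusted p = 0.979), and passed in no tissue.

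Of 22 genes used as measures of mitochondrial mass, 5 were higher and 0 lower in PFC, 11 higher and 1 lower in MDTH, and 0 passed in HPF, beside 3.22% higher and 2.63% lower of all genes in PFC and 12.5% each way in MDTH. The inner-membrane carrier gene Slc25a5, which exchanges ATP and ADP, was higher in PFC by 0.61 (adjusted p = 0.0136) and in MDTH by 0.90 (adjusted p = 0.00278). The outer-membrane channel gene Vdac3 was higher in PFC by 0.63 (adjusted p = 0.0134). The 1 lower in MDTH was Mdh2, of the citric acid cycle, at -0.32 (adjusted p = 0.0273). The 22 genes summed to 207563 to 213940 normalized counts in high and 226608 to 236875 in low performers of HPF, and to 243051 to 257773 in high and 211391 to 223682 in low performers of PFC. In MDTH the sums were 263442 to 284522 in high and 219120 to 233423 in low performers. In each tissue these sums lay on the other side from the mitochondrial share of counts, with no overlap.

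Of 30 genes that assemble respiratory complexes, 3 were higher and 0 lower in PFC, 8 higher and 2 lower in MDTH, and 0 passed in HPF, against the same 3.22% and 2.63% of all genes in PFC and 12.5% each way in MDTH. Uqcc2, an assembly factor of complex III, was higher in PFC by 0.89 (adjusted p = 0.0136) and in MDTH by 1.18 (adjusted p = 0.00270). Of 14 regulators of mitochondrial biogenesis, 0 passed in PFC, 2 were higher and 4 lower in MDTH, and 0 passed in HPF, with the nuclear receptor gene Esrrg lower in MDTH at -0.95 (adjusted p = 0.00294). The 4 lists had median log2 differences between -0.16 and 0.19 in PFC, between -0.24 and 0.34 in MDTH, and between -0.15 and 0.04 in HPF, beside -0.01, 0.00 and -0.01 over all genes tested.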

How the data were processed

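RNA-seq of 18 libraries was deposited by the authors as 1 table of a normalized count signal per gene and library. STAR, Salmon and DESeq2 were used at steps that are not described, per the submitters' processing notes; the build, the annotation, the use of strand and the assignment of reads with several matches are not given in the sources used here. A TruSeq stranded mRNA kit was used, per the labels' protocols. Of 48440 genes, 99.2% were found in GENCODE M21, which gave positions on GRCm38. All columns matched a sample by name. No 2 libraries held equal values.

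Nuclear copies were sought with BLAST 2.17.0 (word size 16) among GENCODE M21 transcripts, at 90% identity or more over at least 200 bases or 80% of the gene. Limma 3.58.1 in R 4.3.3 was run on log2(value + 1) for genes with a mean of at least 10, with a mean-variance trend, two-sided, Benjamini-Hochberg adjustment over all genes tested and a threshold of 0.05. Each tissue was fitted alone; interactions and tissue differences came from 1 fit of 18 libraries with 6 group means. Fold changes on this scale understate changes of low genes. Shares of counts were compared with exact permutation tests in scipy 1.17.1. The fits were tested on simulated counts.

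Libraries of different tissues with the same name number deviated together from their group means, with correlations of 0.346 to 0.611 over 11 pairs, so the numbers were taken to pair libraries across tissues. The fit with this block (estimated correlation 0.356) was an alternative to the unblocked fit reported, and stands beside a result where it changed the call. The named genes were all members, and up to 3 passed genes in each direction of each nuclear list, with Tfam and the transfer RNAs added after their values were seen. Members and lists were chosen with earlier results of these data known. Alternatives were other pseudocounts, no filter, other scalings, no trend, a common fit, blocks and leaving out each library.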

Additional observations from a re-analysis of the deposited data

Results flagged for a closer look

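The high minus low difference differed between tissues by the interaction test, which is what singles out each of these genes. All these contrasts involve HPF, whose lane codes and name style differ from those of the other tissues. Between HPF and PFC the interaction was 1.11 for mt-Nd1, 1.24 for mt-Nd2, 2.55 for mt-Co2, 1.33 for mt-Atp8, 1.25 for mt-Nd4, 1.22 for mt-Nd5, 1.09 for mt-Nd6 and 1.06 for mt-Cytb on the log2 scale, more positive in HPF. Of these, mt-Co2 (adjusted p = 0.0489, and 0.0120 to 0.120 over the alternatives) rested on the small part of its counts assigned to the mitochondrial gene, and with copies its interaction was 0.85 (adjusted p = 0.0244). Alone, it no longer passed without PFC high library 2 or 3, PFC low library 1, 2 or 3, MDTH high library 2 or 3, MDTH low library 1 or 3, HPF high library 1 or 3, or HPF low library 1 or 2.

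Between MDTH and HPF the interaction was -0.84 for mt-Nd2, -0.73 for mt-Atp8, -0.92 for mt-Nd4, -0.91 for mt-Nd5, -1.07 for mt-Nd6 and -0.88 for mt-Cytb. With its copy mt-Nd2 had -0.85 (adjusted p = 0.0861), and -0.84 with the replicate block by name number as well (adjusted p = 0.0237). Among the high performers, the name numbers 44, 88 and 165 recur in all 3 tissues. Among the low performers no name number does, and PFC and HPF low libraries share none. The interaction of HPF and PFC thus compares high libraries of the same numbers, but low libraries of different numbers.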

How the results depend on the processing

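With nuclear copies added, directions reversed for mt-Nd4l (-0.50 in PFC and -0.37 in MDTH), mt-Nd3 in PFC (-0.33) and mt-Co3 in PFC (0.11). The number of genes passed higher in PFC was 0 without a trend, with the titles' replicate numbers as a replicate block and with copies. The number passed lower in PFC was 2 after quantile normalization, 1 without a trend and 0 with the replicate block; in quantile normalization mt-Co1, the top-ranked gene, is set to 0 by construction. In MDTH the number higher was 1 in the fit of 18 libraries and 0 with copies, and the number lower 7 after rescaling to equal totals of the other genes and 2 with the replicate block. In HPF 1 gene, mt-Cytb, passed higher in the fit of 18 libraries. Apart from the fit with copies, the shares of all genes that passed in these alternatives are not shown here. The cause of these changes was not tested. The titles' numbers do not pair high with low libraries (correlations of -0.128 to 0.0923 over 9 pairs).

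With the replicate block by name number, 1 gene passed higher between MDTH and PFC, and 2 with copies, and 1 passed lower between MDTH and HPF as tissues. It moved no other count by over 1.5 times. That last count was also 1 after rescaling and with copies, and 1 passed higher between HPF and PFC as tissues in both. Rescaling moved the median of all genes by over 0.1 in 1 contrast, to -0.14 for the performance interaction of MDTH and HPF. With copies the difference in share was -2.76 percentage points in PFC and 3.49 in HPF.

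Leaving out each library in turn, PFC gave 0 to 5 genes lower and 0 to 2 higher, MDTH 0 to 2 lower and 2 to 2 higher, and HPF 0. With copies 0 to 6 passed lower in PFC and 0 to 3 in MDTH. The interactions gave 0 to 1 higher (MDTH and PFC), 5 to 9 lower (MDTH and HPF) and 6 to 10 higher (HPF and PFC). Tissue differences gave 2 to 7 higher and 0 to 2 lower (MDTH and HPF), and 2 to 4 lower and 0 to 2 higher (HPF and PFC). The share differed by -3.16 to -2.89 percentage points (PFC), by -2.41 to -1.41 (MDTH) and by 1.17 to 2.23 (HPF), and with copies by -2.97 to -2.47, -1.82 to -1.47 and 2.15 to 4.84 in the same tissues. The shares of all genes that passed in the fits without 1 library are not shown here. The depth in reads is unknown, so no counting intervals are given.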
